A study of Mus musculus with 19 samples.

Results

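Dorsal cortex of E14.5 mouse embryos (E, embryonic day) was compared between mutants with an always active Smoothened and wildtype controls, by RNA sequencing. The 10 libraries compared, 4 mutant and 6 control, were those titled as dorsal among 19 libraries of the series, and the other 9 came from medial cortex. Of 47643 gene symbols in the expression table, the 13085 with a level of at least 1 TPM in at least 4 of these 10 libraries were tested. TPM is a transcript level corrected for gene length and scaled to the same total of 1000000 in each library, so levels of different genes can be set side by side. The mutants carried GFAP::Cre and SmoM2. SmoM2 is a mutant form of Smoothened that signals without ligand, and Cre under the GFAP promoter, which is active in radial glia of the developing brain, switches it on. The share of cells that carried the active protein was not measured. The controls were wildtype, per the series' design text, which names no Cre or SmoM2 for them. The tissue field reads dorsal cortex, whereas the protocol names medial or lateral pieces. Whether each library is an embryo of its own is not stated in the labels, and p-values therefore reflect only how these libraries vary, in part perhaps for technical reasons.

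Hedgehog signalling controls the growth and the regional identity of the neural tube. The ligand Sonic hedgehog binds Patched receptors, which otherwise hold Smoothened inactive. Free Smoothened acts at the primary cilium and turns Gli transcription factors from repressors into activators, and these raise a set of genes that includes Gli1 itself and the inhibitors Ptch1 and Hhip. Dorsal cortex is normally patterned with little of this signal, while ventral forebrain receives much of it. At this stage radial glia line the ventricle, divide and give rise to intermediate progenitors and to neurons that migrate outward to form the cortical plate.

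The tissue label was checked on 3 genes that define cortex. Emx1, a gene of dorsal forebrain, lay at 143 ± 5.66 TPM in controls and 119 ± 11.9 TPM in mutants (mean ± SD, n = 6 and 4), Neurod6, a gene of cortical excitatory neurons, at 1625 ± 56.4 and 1305 ± 192 TPM, and Tbr1, a gene of early-born cortical neurons, at 73.7 ± 10.6 and 50.7 ± 7.44 TPM. All 3 were thus well expressed in both groups. Pairwise correlations across tested genes ran from 0.977 to 0.993 among controls and from 0.978 to 0.989 among mutants. In a principal component analysis the first component (38.9% of the variance) separated the genotypes. The second component (26.1%) did not follow the genotype: control libraries 1 and 5 stood at 25.1 and 28.0 and mutant libraries 3 and 4 at 10.8 and 8.69, with the other 6 libraries below 0. By Xist and Ddx3y, controls 2, 3 and 4 were female and the other 7 libraries male. Sex is thus partly confounded with genotype, and the call was lost in the 7 male libraries alone for Bcan, Bmi1, Boc, Crh, Csnk1d, Dll1, E2f3, E2f5, Evc, Fadd, Foxf2, Gli2, Hes1, Neurod6, Olig1, Prkacb, Prkar1a, Robo3, Sox2, Stk36, Thra and Unc5b among the genes described below. That run keeps only control libraries 1, 5 and 6, so fewer libraries and sex cannot be told apart in it. With sex as a term in all 10 libraries 11 of the genes described lost their call. After median-ratio rescaling (below) the call was lost for Bmi1, Csnk1d, Dusp6, Emx1, Neurod6, Prkacb, Prkar1a and Stk36, and all of these kept their sign.

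Over all tested genes, 4622 of 13085 passed the test (35.3%; limma on log2(TPM + 1) with Benjamini-Hochberg adjustment, threshold 0.05), 1222 higher (9.34%) and 3400 lower (26.0%) in the mutants. A change of at least 2-fold was reached by 83 of the genes called higher (0.634% of those tested) and by 48 of those called lower (0.367%). The median change of all genes was -0.10. Because each library is scaled to the same total, the balance of directions depends on the scale: calls higher made up 26.4% of all calls as deposited, 54.6% after median-ratio rescaling (1965 higher, 15.0%, and 1634 lower, 12.5%), 47.5% after quantile normalization (1791 and 1981) and 43.0% after rescaling without histone, mitochondrial and ribosomal protein genes (1588 and 2107). The counts were 721 and 1428 in the male libraries alone, and 1203 and 2783 without control libraries 1 and 5. Counts of list members below stand beside the shares over all tested genes, 9.34% higher and 26.0% lower. After median-ratio rescaling these shares are 15.0% and 12.5%. A list near the shares of its own run does not stand out from all genes. In the male libraries alone 721 of the 13085 genes were called higher and 1428 lower, both fewer than in the full set. List counts of that run are to be read beside these and not beside 9.34% and 26.0%. Changes below are differences in log2(TPM + 1) with their standard error, a scale that understates the change of genes near 0. Prm1, Fgf15, Hhip, Dio3, Pappa, Dbx1, Rxrg and Egfr, among others, passed the filter through the mutants alone, so their calls add no support. In pieces of tissue, fewer cells of a type and less RNA per cell cannot be told apart.

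**Figure D1:**
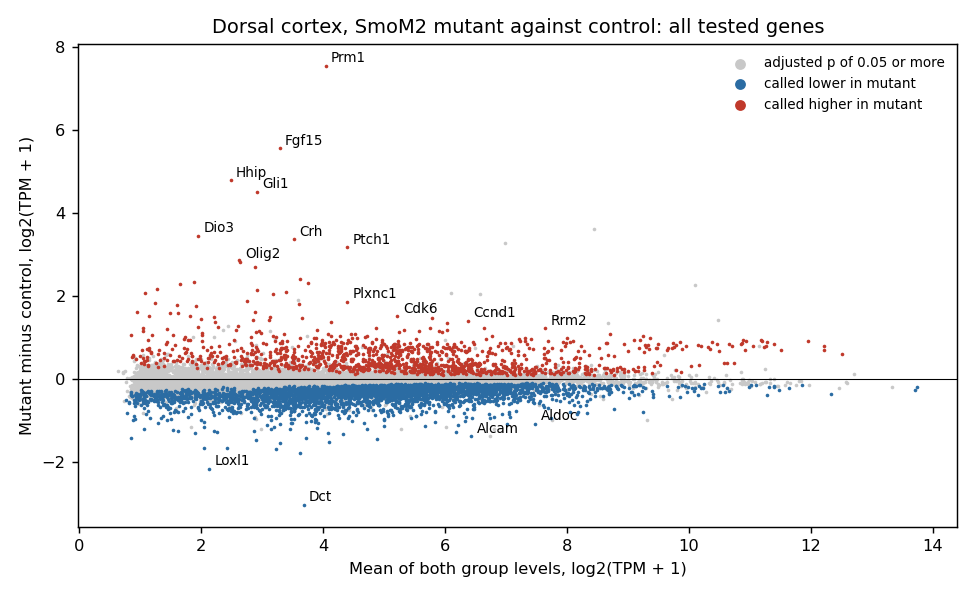
Difference between mutant and control dorsal cortex (y axis, log2(TPM + 1)) against the mean of both group levels (x axis, log2(TPM + 1)) for the tested genes other than 6 sex-linked ones. Red and blue points are the genes called higher and lower by limma; Prm1, Fgf15, Hhip and Gli1 lie above 4, and Dct is the lowest called point at -3.04.

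The 3 genes described here that report Hedgehog activity separated the genotypes completely. Gli1, the transcription factor gene that reports pathway activity (chromosome 10, 127329882 to 127341974, GRCm38), lay at 0.327 to 1.08 TPM (median 0.503) in the 6 controls and at 34.5, 31.9, 42.8 and 30.7 TPM in mutant libraries 1 to 4. Ptch1, which encodes the main receptor and inhibitor (chromosome 13, 63508328 to 63573598), lay at 4.97 to 6.63 TPM (median 6.11) in controls and at 71.2, 64.3, 67 and 47.8 TPM in mutants. For both genes the lowest mutant library was above the highest control. Hhip, whose product captures Hedgehog ligands outside the cell (chromosome 8, 79965851 to 80058006), lay at 0 to 0.161 TPM (median 0.0484) in controls and at 31.1, 33.4, 25.7 and 23.9 TPM in mutants. In all 3 genes each mutant library lay far above each control, and mutant library 4 was the lowest in each. The changes were 4.51 ± 0.14 (adjusted p = 3.71e-09) for Gli1, 3.18 ± 0.11 (adjusted p = 1.8e-08) for Ptch1 and 4.79 ± 0.10 (adjusted p = 2.76e-10) for Hhip, each called higher by limma with Benjamini-Hochberg adjustment. By TPM, Ptch1 was the most abundant of the 3 in both groups.

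The signal transducers changed by less than 1 on this scale. Smo, whose value holds native and SmoM2 transcripts together, lay at 73.4 to 91.5 TPM (median 85.1) in controls and at 141, 110.4, 154 and 114 TPM in mutants, without overlap, and rose by 0.61 ± 0.10 (adjusted p = 0.000668). Gli2, which encodes the main activator, lay at 3.59 to 5.52 TPM (median 4.51) in controls and at 6.25, 6.09, 8.27 and 5.73 TPM in mutants, rose by 0.44 ± 0.12 (adjusted p = 0.0149) and was not called in the male libraries alone (adjusted p = 0.118). Gli3, whose product acts mainly as a repressor, lay at 20.6 to 35.3 TPM (median 25.3) in controls and 19.7, 16.4, 24.3 and 21.5 TPM in mutants. These groups overlapped and the change of -0.36 ± 0.14 was not called (limma adjusted p = 0.0703; 0.034 without control library 6). The ligand gene Shh was below the filter, at a median of 0.0394 TPM in controls and at 0.0297, 0.0621, 0 and 0 TPM in mutants. Of the 29 tested genes on a list of the Hedgehog pathway, 8 were called higher (background 9.34%) and 7 lower (26.0%), with a median of -0.07. Those called higher included, besides genes described above, Boc, a coreceptor (0.22, lost without any of 8 single libraries, all but control 5 and mutant 2, with an adjusted p of up to 0.134), and Evc, a ciliary protein that acts with Smoothened (0.52). Those called lower were the coreceptor Cdon (-0.62), Scube3, of a family that helps to release ligand (-0.76), Gpr161, a ciliary receptor that restrains the pathway (-0.32), the kinase Stk36 (-0.35), the protein kinase A subunits Prkacb (-0.28) and Prkar1a (-0.16), and Csnk1d, a casein kinase (-0.13). The call of Stk36 was lost without mutant library 1 (0.0667) or 2 (0.0563), and that of Prkar1a without control library 3, 4 or 6 or mutant library 1, 3 or 4 (adjusted p up to 0.105). After median-ratio rescaling the list held 8 members called higher and 3 lower, and in the male libraries 5 and 3. The other 14 tested members were not called.

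**Figure D2:**
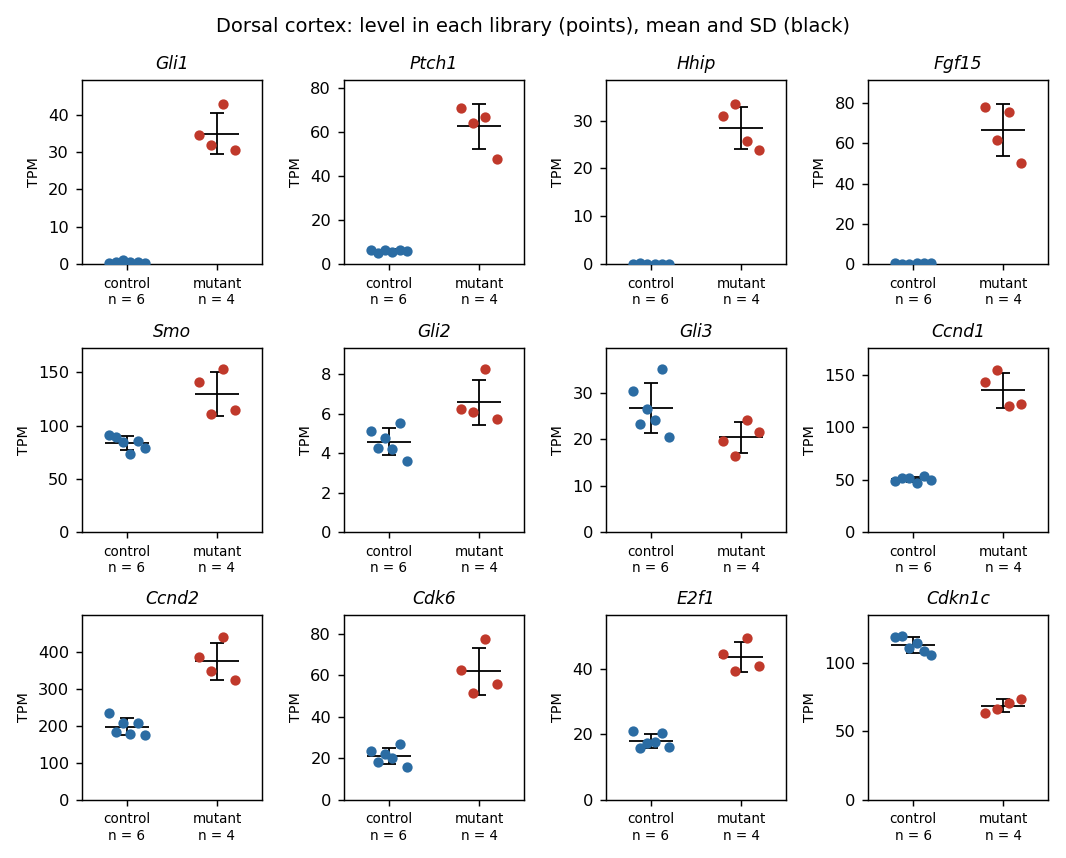
TPM (y axis, from 0) of 12 Hedgehog and cell cycle genes in each control (blue, n = 6) and mutant (red, n = 4) dorsal library, with the mean and SD in black. The groups of Gli3 overlap and those of the other 11 genes do not; Cdkn1c is the gene whose mutant libraries all lie below the controls.

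Fgf15, a secreted growth factor gene that is a known Hedgehog target in the forebrain (chromosome 7, 144896531 to 144900953), lay at 0.265 to 0.734 TPM (median 0.398) in controls and at 77.8, 61.8, 75.7 and 50.3 TPM in mutants, a change of 5.56 ± 0.13 (adjusted p = 4.42e-10). In the mutants its TPM was of the order of that of Ptch1, and no control reached 1 TPM. Its neighbourhood was examined next. Within 500 kb of its start, 25 genes are annotated, 17 are in the table and 9 were tested: 5 were called higher and none lower, and 4 were not called. Over all tested genes 9.34% were called higher. The 5 include Fgf15 itself, Gm26793, which overlaps it, and Ccnd1. Ano1, a calcium-activated chloride channel gene whose start lies at -144.6 kb from that of Fgf15, lay at 0.561 to 0.874 TPM (median 0.606) in controls and at 5.13, 4.46, 5.57 and 3.5 TPM in mutants, a change of 1.77 ± 0.12 (adjusted p = 3.22e-06). Ccnd1, the cyclin D1 gene 43.4 kb beyond, is described with the cell cycle below and changed by 1.41. Gm26793, an antisense transcript that overlaps Fgf15 (its start 0.9 kb away), changed by 1.60 ± 0.27 (adjusted p = 0.00127); since the use of strand in the authors' quantification is not given in the sources used here, its reads and those of Fgf15 may not be told apart. Fadd, an adaptor gene of death receptors, changed by 0.36 ± 0.10 (adjusted p = 0.0163), with overlapping groups, and was not called without mutant library 1 (0.0567) or 3 (0.0535). Oraov1 starts between Fgf15 and Ccnd1 and overlaps Ccnd1, which is on the other strand, at their ends, where reads may not be told apart. Oraov1 lay at 16.6 ± 1.21 TPM in controls and 15.6 ± 0.91 TPM in mutants (-0.09 ± 0.07, limma adjusted p = 0.348). It was not called, while Fgf15 and Ccnd1 were. Of the other 3, Cttn and Tpcn2 were not called either, and Ppfia1 (0.08 ± 0.05, adjusted p = 0.28) was called higher after median-ratio rescaling (0.0112). The FGF genes Fgf3 and Fgf4, at -58.4 and -49.2 kb, were below the filter in both genotypes, with means of at most 0.0733 TPM. The window was chosen after the values of Fgf15 and Ccnd1 were known, so its count gives no support for a change shared by the region.

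**Figure D3:**
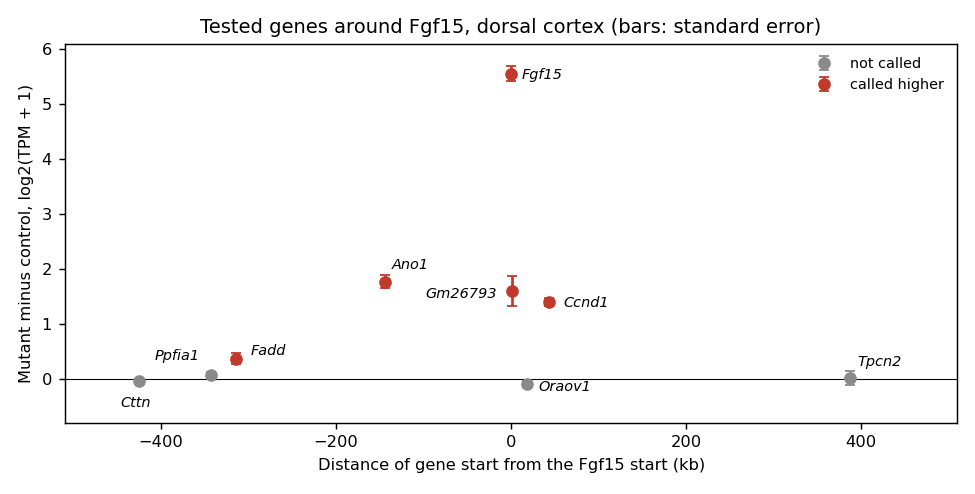
Difference between mutant and control dorsal cortex (y axis, log2(TPM + 1), bars one standard error) of the 9 tested genes within 500 kb of the Fgf15 start (x axis, distance in kb). Red points are called higher: Fgf15 at 5.56, Ano1, Gm26793, Ccnd1 and Fadd; Cttn, Ppfia1, Oraov1 and Tpcn2 lie near 0.

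Among 15 tested members of a list of Hedgehog target genes, 6 were called higher and 4 lower, with a median of 0.04, and the other 5 were not called (2 lower in the male libraries alone). The 6 were Fgf15, Olig2, Cdk6, Ccnd1, Ccnd2 and Olig1. Of the 4 lower, Sfrp1, which encodes a secreted Wnt inhibitor, lay at 214 to 263 TPM (median 219) in controls and 144, 135, 177 and 150.2 TPM in mutants, a change of -0.57 ± 0.08 (adjusted p = 0.000282). The others were Sfrp2 (-0.37), the Polycomb gene Bmi1 (-0.18) and the forkhead gene Foxf2 (-0.37). Bmi1 was not called without control library 1, 3 or 5 or mutant library 1 (adjusted p up to 0.0928). The list shares members with the Hedgehog and cell cycle lists and is no independent count.

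The G1 genes, which decide whether a progenitor divides again, rose in large part. Cyclin D1, from Ccnd1 (chromosome 7, 144929931 to 144939925), lay at 46.9 to 53.3 TPM (median 50.2) in controls and at 143, 155, 120.3 and 122 TPM in mutants. Cyclin D2, from Ccnd2, lay at 176 to 234 TPM (median 195) and at 385, 347, 441 and 325 TPM. Cdk6, their kinase partner (chromosome 5, 3341485 to 3531008), lay at 15.6 to 27.1 TPM (median 21) and at 62.6, 51.5, 77.8 and 55.7 TPM. In all 3 genes each mutant library was above each control, with changes of 1.41 ± 0.07 (adjusted p = 3.97e-07), 0.92 ± 0.10 (adjusted p = 5.67e-05) and 1.51 ± 0.15 (adjusted p = 3.01e-05) in limma. The close relatives did not follow. Cdk4, the other kinase partner and more abundant per length than Cdk6 in both groups, lay at 558 to 631 TPM (median 607) in controls and 665, 622, 690.2 and 650.5 TPM in mutants (0.12 ± 0.05, adjusted p = 0.0618); it passed after median-ratio rescaling (0.22, adjusted p = 0.0178) and without mutant library 2 (adjusted p = 0.038). Cyclin D3, from Ccnd3, stood at 9.87 to 11.2 TPM (median 10.6) and 10.9, 8.5, 13.4 and 10.5 TPM, a change of 0.02 ± 0.10 (adjusted p = 0.921) whose sign turned without control library 6 or mutant library 3. Cdkn1c, which encodes the p57 inhibitor of cyclin-dependent kinases and is imprinted, lay at 105 to 119 TPM (median 113) in controls and at 63.2, 65.9, 70.6 and 73.7 TPM in mutants, with no overlap, and fell by 0.71 ± 0.05 (adjusted p = 6.32e-06).

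On the whole list of G1 regulators, 18 of 28 tested members were called higher and 2 lower, with a median of 0.42; the other lower gene was the inhibitor Cdkn1b (-0.24). E2f1, the E2F factor gene of S-phase entry, lay at 15.7 to 20.9 TPM (median 17.5) in controls and at 44.7, 39.4, 49.6 and 41.1 TPM in mutants and rose by 1.23 ± 0.09 (adjusted p = 6.88e-06). Ccna2, the S-phase cyclin, rose by 0.73 ± 0.06 (adjusted p = 1.36e-05). Of 8 E2F genes, E2f1, E2f2, E2f3, E2f5, E2f7 and E2f8 were called higher, between 0.28 for E2f5 and 1.23 for E2f1, while E2f4 (0.14) and E2f6 (0.07) were not. Rbl1, which encodes a relative of the retinoblastoma protein, rose by 0.44.

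Of the 50 tested DNA replication genes, 47 were called higher and 0 lower, with a median of 0.66. Cdt1, which licenses replication origins, lay at 37.8 to 41.4 TPM (median 38.4) in controls and at 87.9, 83, 102 and 78.7 TPM in mutants, a change of 1.15 ± 0.06 (adjusted p = 9.37e-07). Cdc45, part of the replicative helicase, changed by 1.17 ± 0.08 (adjusted p = 5e-06), Mcm10, a helicase loading factor, by 1.04 ± 0.08 (adjusted p = 7.71e-06), and the primase gene Prim1 by 0.85 ± 0.06 (adjusted p = 4.46e-06). Among nucleotide synthesis genes, 20 of 30 tested members were called higher and 2 lower (1 lower after median-ratio rescaling or in the male libraries alone), led by Rrm2, the regulated subunit of ribonucleotide reductase, which lay at 118 to 146 TPM (median 129) in controls and at 286, 284, 356 and 294 TPM in mutants (1.22 ± 0.07, adjusted p = 1.7e-06). Dut, which removes dUTP, rose by 0.96, the thymidylate synthase gene Tyms by 0.83 and Mthfd2, a mitochondrial folate enzyme gene, by 0.99. On the DNA repair list 28 of 38 tested members were called higher and 1 lower, among them Fancd2 (0.89), Rad51ap1 (0.89), Rbbp8 (0.64) and Blm (0.57), all of homologous recombination or crosslink repair; 17 were called higher in the male libraries alone, and 2 lower without control library 2.

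Mitotic genes moved as uniformly: 53 of 55 were called higher and 0 lower, with a median of 0.69. Cdk1, the mitotic kinase gene, lay at 82.7 to 94.5 TPM (median 87.5) in controls and at 158, 141, 169 and 144 TPM in mutants, a change of 0.79 ± 0.06 (adjusted p = 5.94e-06). Its cyclins Ccnb1 and Ccnb2 rose by 0.74 ± 0.06 and 0.88 ± 0.07, and Kif2c, a kinesin that takes microtubules apart at centromeres, by 0.83 ± 0.07. The mitotic changes ranged from 0.126 to 0.996. Genes for chromatin made or marked in S phase followed: 22 of 29 tested members were called higher and 1 lower (0 lower after median-ratio rescaling, in the male libraries alone, or without control library 1, 3 or 5 or mutant library 1 or 2). Of these, H2afx, a histone variant that marks DNA breaks, rose by 0.74 ± 0.05, Uhrf1, which guides maintenance DNA methylation, by 0.83 ± 0.08, Hells by 0.88 ± 0.08 and Atad2 by 0.84 ± 0.07.

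Replication-dependent histones, whose transcripts are made in S phase, took 5.85% to 7.29% of all TPM in controls and 10.1% to 12.6% in mutants, without overlap. Of 66 tested genes 56 were called higher and 0 lower, with a median of 0.80. Hist1h3b lay at 1339.7 to 1638 TPM (median 1406) in controls and at 2750.1, 2530.4, 2987 and 2533 TPM in mutants (0.91 ± 0.07, adjusted p = 5.45e-06) and Hist2h3c2 rose by 0.99 ± 0.08. These genes are near-identical copies that share reads, so single values are uncertain. As the libraries are scaled to one total, a larger share of these genes leaves less for all others. After rescaling without histone, mitochondrial and ribosomal protein genes the median of all genes was -0.04. The part of the histones alone in the shift of other genes was not tested.

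Promoter sequences were searched for letters that known cell cycle factors bind, a feature that the lists did not use. The motifs were the E2F site (TTTCCCGC, TTTCGCGC, TTTGCCGC or TTTGGCGC), the cell cycle homology region bound by the DREAM and MuvB complexes (TTTGAA) and the NF-Y box (CCAAT), on both strands of windows from 250 bases before to 50 after the start (RefSeq, GRCm38.p6). An E2F site was found in 32.7% of the promoters of the replication list (16 of 49, from 40 of its 50 genes), in 4.09% of the promoters of tested genes and in 2.26% of all 32851 promoters of the table. Only 10156 of the 13085 tested genes had a promoter there, under 80%, so the shares over tested genes are a description and carry no comparison. TTTGAA was found in 71.2% of the promoters of the mitosis list (37 of 52, from 47 of its 55 genes), in 11.8% of those of tested genes and in 17.9% of all promoters. CCAAT was found in 78.8% of mitotic and in 84.7% of histone promoters (from 58 of 66 genes), against 37.4% of all. The replication promoters held TTTGAA at 16.3% and the mitotic ones an E2F site at 7.69%. These are matches of letters and not shown to be bound in this tissue. The promoters of Cdt1 and Cdk1 are shown because each is the member of its list with the lowest adjusted p among those called higher that hold the list's motif; the matches are in capitals, and CCAAT on the other strand reads ATTGG.
Cdt1, chr8:122567765-122568064, plus strand: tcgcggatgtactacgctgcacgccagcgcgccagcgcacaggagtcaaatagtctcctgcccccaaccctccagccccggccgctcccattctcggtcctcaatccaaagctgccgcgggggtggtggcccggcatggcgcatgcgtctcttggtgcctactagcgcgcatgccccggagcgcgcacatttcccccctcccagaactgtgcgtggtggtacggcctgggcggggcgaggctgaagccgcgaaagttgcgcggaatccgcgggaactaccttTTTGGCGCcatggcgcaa
Cdk1, chr10:69352863-69353162, minus strand: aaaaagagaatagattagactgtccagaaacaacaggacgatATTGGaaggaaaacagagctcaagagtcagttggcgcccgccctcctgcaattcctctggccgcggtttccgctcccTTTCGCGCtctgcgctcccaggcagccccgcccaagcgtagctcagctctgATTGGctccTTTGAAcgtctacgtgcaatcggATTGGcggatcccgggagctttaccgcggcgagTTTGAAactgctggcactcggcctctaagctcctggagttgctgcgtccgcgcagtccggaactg
In Cdt1 the E2F site begins 32 bases after the start. The Cdk1 promoter holds 6 matches: an E2F site, TTTGAA in 2 places and the NF-Y box in 3. Of the Hedgehog pathway and target lists, 23 of 29 and 10 of 15 genes had a promoter in the table, again under 80%, so a search for the Gli site GACCACCCA was void. It matched 0 of their 35 and 0 of their 14 promoters, and 83 of all 32851 (0.253%). Gli1 itself was not among the genes with a promoter.

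Growth and stress lists did not move as blocks. On the list of p53 targets 3 of 24 tested members were called higher and 7 lower, with a median of -0.05 (3 and 3 after median-ratio rescaling and 2 and 3 in the male libraries alone). These shares, 12.5% and 29.2%, were near the 9.34% and 26.0% of all tested genes. Eda2r, a death receptor gene of the p53 response, lay at 1.07 to 1.65 TPM (median 1.37) in controls and at 4.43, 4.13, 10.4 and 4.12 TPM in mutants (1.43 ± 0.20, adjusted p = 0.000394), with mutant library 3 highest. Without control library 4 the list held 4 lower. Trp53inp1 and Sesn1, which promote cell death and restrain growth, fell by 0.84 ± 0.11 and by 0.62 ± 0.08. Among Myc and growth genes 6 of 29 tested members were called higher and 6 lower (10 and 5 after median-ratio rescaling and 1 and 5 in the male libraries alone). Myc itself fell by 0.60 ± 0.07 (adjusted p = 0.000101). Of its antagonists, Mxd3, which is expressed in S phase, rose by 0.79 ± 0.06 while Mxd4 and Mxi1 fell by 0.64 ± 0.09 and 0.41 ± 0.05. Glycolysis genes gave 2 higher and 8 lower of 25, among the lower Aldoc and the neuronal enolase gene Eno2 (-0.70). These counts were 6 and 6 after median-ratio rescaling and 2 and 7 in the male libraries alone. There were 7 higher without mutant library 2 but 1 without control library 2, 4 or 5 or mutant library 1, 3 or 4. Cholesterol synthesis and transport genes gave 2 and 5 of 28, 8 and 3 after median-ratio rescaling and 1 and 2 in the male libraries alone (1 higher without mutant library 1). Nuclear genes of the respiratory chain gave 0 and 2 of 44, with a median of 0.01 (7 and 0 after median-ratio rescaling and 0 and 0 in the male libraries alone, and 0 lower without mutant library 1). Ribosomal protein genes gave 0 higher and 23 lower of 81, but 1 and 0 after median-ratio rescaling and 0 and 1 in the male libraries alone, and 52 lower after quantile normalization. Cilium genes gave 2 and 8 of 46, 5 and 2 after median-ratio rescaling and 1 and 2 in the male libraries alone (1 higher without control library 1, 4 or 5 or mutant library 1, 2 or 3). In limma none of 13 mitochondrially encoded genes was called (0 at an unadjusted p under 0.05).

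**Figure D4:**
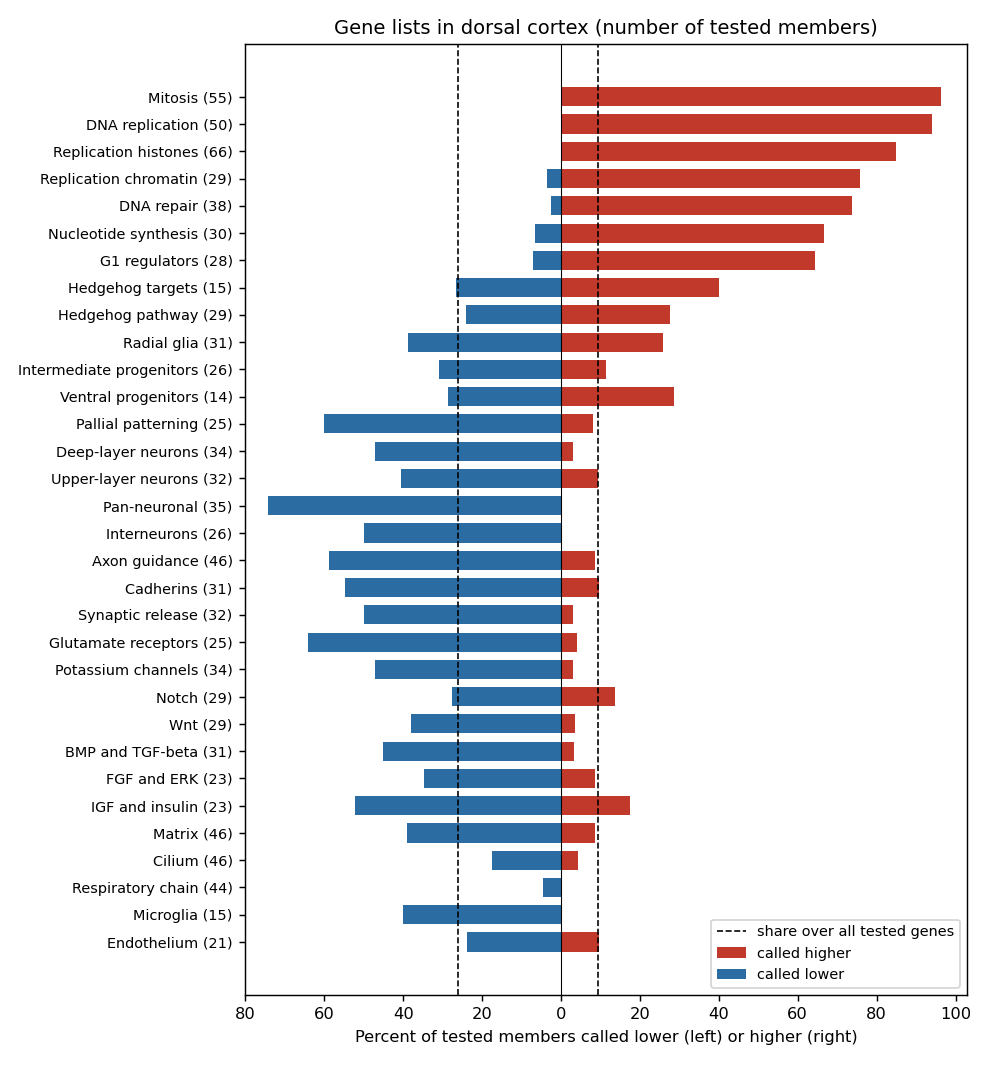
Percent of the tested members of 32 gene lists called higher (red, right) and lower (blue, left) in mutant dorsal cortex; numbers of tested members in parentheses, dashed lines the shares over all tested genes (9.34% and 26.0%). Cell cycle lists lie at the top right, and the pan-neuronal list reaches furthest left.

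Radial glia genes split. On their list 8 of 31 tested members were called higher and 12 lower, with a median of -0.13 (11 and 7 after median-ratio rescaling; 5 higher without mutant library 1 or in the male libraries alone). Sox1, a progenitor factor gene, lay at 35.2 to 46 TPM (median 39.8) in controls and at 72.5, 56.8, 83.6 and 57.9 TPM in mutants, a change of 0.72 ± 0.11 (adjusted p = 0.000703). Slc1a3, the glutamate transporter GLAST, lay at 50.1 to 58.8 TPM (median 50.8) and 95, 99.3, 89.8 and 88.4 TPM (0.81 ± 0.06, adjusted p = 5.45e-06). Sox2 rose by 0.40 ± 0.08 (adjusted p = 0.00417), though not in the male libraries alone (adjusted p = 0.0516). On the other side, Aldoc, an aldolase of radial glia and astrocytes, lay at 238 to 279.9 TPM (median 256) in controls and 108, 111, 119 and 152 TPM in mutants and fell by 1.08 ± 0.09 (adjusted p = 1.36e-05). Hopx, a gene of outer and hippocampal radial glia, fell by 0.83 ± 0.20 (adjusted p = 0.00922), with mutant library 3 at 14.9 TPM inside the control range. Pax6, the master gene of cortical progenitors, was at 32.4 to 38.7 TPM (median 34.5) in controls and 39.1, 33.1, 50.9 and 37.4 TPM in mutants (0.16 ± 0.10, adjusted p = 0.24), where only mutant libraries 1 and 3 were above all controls.

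Intermediate progenitor genes showed no shared direction. Eomes, their defining factor gene, lay at 189 to 234 TPM (median 205) in controls and 272, 204, 296 and 224 TPM in mutants, overlapping (0.26 ± 0.10, adjusted p = 0.0589); it passed after median-ratio rescaling (0.36, adjusted p = 0.0188), without control library 1 (0.0407) and without mutant library 2 (0.0122). The proneural genes Neurog1 and Neurog2 went in opposite directions: Neurog1 lay at 8.73 to 13.2 TPM (median 11.8) in controls and at 22.8, 14.6, 32.5 and 21.1 TPM in mutants (0.89 ± 0.18, adjusted p = 0.0031), and the far more abundant Neurog2 lay at 285 to 325 TPM (median 302) in controls and at 223, 223, 267 and 269 TPM in mutants (-0.31 ± 0.06, adjusted p = 0.0043). On the list, 3 of 26 tested members were called higher and 8 lower (11.5% and 30.8%, against 9.34% and 26.0% of all tested genes). The counts were 7 and 3 after median-ratio rescaling, 2 and 2 in the male libraries alone, and 6 and 4 without control libraries 1 and 5. Leaving out control library 1 gave 5 higher and 5 lower, mutant library 2 gave 5 higher, and control library 3 or 5 or mutant library 4 gave 5 lower.

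Genes that mark ventral forebrain were mixed. Olig2, which encodes a transcription factor of ventral and oligodendrocyte lineages (chromosome 16, 91225457 to 91228677), lay at 0.893 to 1.57 TPM (median 1.32) in controls and at 18.7, 13.8, 22.4 and 8.64 TPM in mutants, a change of 2.82 ± 0.21 (adjusted p = 5.94e-06). Its neighbour Olig1 rose by 0.72 ± 0.22 (adjusted p = 0.0261; 0.0508 and 0.0639 without mutant library 2 or 4). Dbx1, a progenitor factor gene of the border between dorsal and ventral forebrain, was at 0.0451 to 0.17 TPM (median 0.12) in controls and at 2.55, 3.64, 7.92 and 3.23 TPM in mutants (2.17 ± 0.21, adjusted p = 2.77e-05), highest in mutant library 3. Nr2f2 and Nr2f1, orphan receptor genes that are graded across cortex and high in caudal ventral forebrain, rose by 1.17 ± 0.18 (adjusted p = 0.000573) and 0.68 ± 0.14 (adjusted p = 0.00335). Ventral factor genes such as Nkx2-1, Nkx2-2, Nkx6-2, Gsx1, Lhx8 and Six3 did not pass the filter. On the list of ventral progenitors 4 of 14 tested members were called higher and 4 lower (lower: 1 in the male libraries alone, without control libraries 1 and 5 or without mutant library 1, and 2 after median-ratio rescaling or without control library 4). None of 26 tested interneuron genes was higher and 13 were lower, with a median of -0.40 and with 5 lower in the male libraries; without control library 3, control library 4 or mutant library 1 it was 8. After median-ratio rescaling 1 was higher and 8 were lower, and without control library 5 there was also 1 higher. Sp8, a gene of interneurons and of cortical patterning, changed by -0.61 ± 0.12 (adjusted p = 0.00285).

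Genes that pattern the pallium, the dorsal forebrain, were more often lower than higher: 2 of 25 tested members were called higher and 15 lower, with a median of -0.36 (10 lower after median-ratio rescaling; 1 higher in the male libraries alone and without control library 2, 3, 4 or 6 or mutant library 1 or 3). Dmrt3, a medially graded factor gene, lay at 6.39 to 13.5 TPM (median 10.2) in controls and 4.53, 1.67, 4.49 and 4.34 TPM in mutants (-1.26 ± 0.24, adjusted p = 0.00233), and mutant library 2 was far below the others. Rspo3, which amplifies Wnt signals and marks the hem side of cortex, lay at 63.8 to 72.9 TPM (median 65.8) in controls and at 35.1, 38.2, 36 and 43.8 TPM in mutants (-0.79 ± 0.06, adjusted p = 9.66e-06), without overlap. Emx2 (-0.71), Fezf2 (-0.44) and the ephrin receptor gene Epha5 (-0.62) were lower as well.

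Neuronal genes were lower in several lists. None of 35 tested pan-neuronal genes was called higher and 26 were lower, with a median of -0.39; 15 were lower and 1 higher after median-ratio rescaling, and the lower count was 15 without mutant library 3 and 8 in the male libraries alone. Map2, a dendrite protein gene, lay at 225 to 276 TPM (median 255) in controls and 168, 186, 165 and 215 TPM in mutants (-0.48 ± 0.08, adjusted p = 0.000953). The axonal adhesion genes Cntn2 and L1cam fell by 0.73 ± 0.13 and 0.60 ± 0.08. Deep-layer genes gave 1 higher and 16 lower of 34, with a median of -0.45, and upper-layer genes 3 and 13 of 32, with a median of -0.31 (1 higher in the male libraries alone or without mutant library 1 or 3). Bcl11b, a factor gene of deep-layer projection neurons, lay at 152 to 214 TPM (median 191) in controls and 98.3, 108, 107 and 118 TPM in mutants (-0.79 ± 0.10, adjusted p = 0.000153). Nxph4, which marks the deepest layer, lay at 13.6 to 17.6 TPM (median 15.3) in controls and at 6.96, 4.65, 5.55 and 7.66 TPM in mutants (-1.22 ± 0.12, adjusted p = 3.17e-05). Unc5d, a netrin receptor of neurons on their way to upper layers, lay at 35.7 to 42.4 TPM (median 39) in controls and at 14.4, 18.4, 16.1 and 17.1 TPM in mutants (-1.20 ± 0.07, adjusted p = 1.7e-06), with each mutant library below the lowest control. Rnd3, a small GTPase of neuronal migration, went against its list and rose by 0.58 ± 0.07 (adjusted p = 9.1e-05).

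Most members of the synaptic and channel lists were lower or not called, and 1 in each was higher. Of 32 synaptic release genes 16 were lower and 1 higher, of 25 glutamate receptor genes and partners 16 lower and 1 higher, and of 34 potassium channel genes 16 lower and 1 higher. The other 15, 8 and 17 members were not called. Of the higher genes, Cplx2, a complexin that clamps vesicle fusion, lay at 63.5 to 81 TPM (median 75.9) in controls and at 141, 197, 143 and 139.9 TPM in mutants (1.03 ± 0.10, adjusted p = 3.13e-05). Cacng5, a subunit that travels with AMPA receptors, lay at 1.63 to 3.39 TPM (median 2.5) and at 18.2, 11.4, 18.1 and 11.9 TPM (2.15 ± 0.17, adjusted p = 8.7e-06). Among the lower genes were Syp (-0.42) of synaptic vesicles, Gria3 (-0.63) and Grm5 (-0.55) of glutamate receptors, and the channels Kcnj3 (-0.75) and Kcnt2 (-0.82). In the male libraries alone 7, 5 and 13 were lower, and after median-ratio rescaling 14, 8 and 14. Without mutant library 1 or 3 the glutamate receptor count was 9.

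Axon guidance genes gave 27 of 46 tested members lower and 4 higher, with a median of -0.40, and 23 and 5 after median-ratio rescaling. The semaphorin receptor gene Nrp1 lay at 169 to 197 TPM (median 172) in controls and 105, 113, 76.9 and 100.1 TPM in mutants (-0.85 ± 0.09, adjusted p = 5.61e-05), and Epha4 at 277 to 316 TPM (median 289.9) and 157, 122, 174 and 159.8 TPM (-0.95 ± 0.08, adjusted p = 1.54e-05). The netrin receptor gene Dcc (-0.81) and the Slit receptor genes Robo1 (-0.89) and Robo2 (-0.77) were lower too. The opposite held for Plxnc1, a semaphorin receptor gene (chromosome 10, 94790866 to 94944835), which lay at 8.87 to 10.9 TPM in controls and at 42.9, 38.6, 41 and 33.6 TPM in mutants (1.86 ± 0.08, adjusted p = 7.96e-08). Ntn1, the netrin ligand, lay at 0.69 to 1.22 TPM (median 1.09) and at 5.18, 8.81, 5.56 and 4.4 TPM (1.76 ± 0.16, adjusted p = 1.6e-05), and Robo3, a receptor of commissural axons, rose by 1.21 ± 0.34 (adjusted p = 0.0173). Of netrin receptor genes, Dcc, Unc5b (-0.44) and Unc5d were lower. Dcc and Unc5b were named after their values were seen, and Unc5b was not called in the male libraries alone (limma adjusted p = 0.0724). A joint change of ligand and receptors was not tested. With the filter at 5 TPM, 1 member of the axon guidance list was called higher. Cadherins and protocadherins gave 17 lower and 3 higher of 31; Pcdh7 (-1.41), Pcdh20 (-1.31), Fat3 (-0.95) and Pcdh19 (-0.77) led the lower ones.

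Of the signalling lists, Notch gave 4 higher and 8 lower of 29 (4 and 6 after median-ratio rescaling and 2 and 6 in the male libraries alone). Its lower share, 27.6%, was near the 26.0% of all tested genes, and its higher share was 13.8% against 9.34%. The Notch ligand Jag1 lay at 11.4 to 12.9 TPM (median 12.1) in controls and at 23.8, 32.1, 18.5 and 19.9 TPM in mutants (0.87 ± 0.12, adjusted p = 0.000397), while the ligand Dll1, made by newborn neurons, changed by -0.42 ± 0.11. The effectors differed as well, Hes1 at 0.35 ± 0.10 against Hes5 at -0.45 ± 0.10 and Nrarp at -0.40 ± 0.08. Hes1 was not called without mutant library 1 (0.0596) or 3 (0.0551). Wnt genes gave 1 higher and 11 lower of 29 (1 and 9 after median-ratio rescaling and 1 and 7 in the male libraries alone). The higher one was beta-catenin, Ctnnb1, at 1288 to 1403 TPM (median 1362) in controls and at 1741, 1758, 1764 and 1721 TPM in mutants (0.37 ± 0.04, adjusted p = 5.04e-05). Among the lower was the ligand Wnt7a (-0.48). BMP and TGF-beta genes gave 1 and 14 of 31 (1 and 7 after median-ratio rescaling and 1 and 8 in the male libraries alone). Of these, Id1, a target of BMP, rose by 0.56 and the receptors Acvr1 (-0.53) and Tgfbr1 (-0.31) were lower. In the FGF and ERK list 2 were higher, Fgf15 and Fgfr3, 8 lower and 13 not called of 23. Among the lower, Etv5, a transcription factor gene, lay at 36.7 to 46.9 TPM (median 44.9) in controls and 20.8, 26.5, 19 and 30.3 TPM in mutants (-0.84 ± 0.12, adjusted p = 0.000377). Dusp4 changed by -0.93 ± 0.10 (adjusted p = 7.43e-05). Dusp6 changed by -0.41 (not called after median-ratio rescaling, adjusted p = 0.0521) and the receptor Fgfr1 by -0.49, whereas Fgfr3 rose by 0.48 (not called without mutant library 1 or 3, adjusted p = 0.0507 and 0.0501).

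Insulin-like growth factor genes gave 4 higher and 12 lower of 23 (4 and 8 after median-ratio rescaling and 3 and 8 in the male libraries alone). Pappa, a protease that frees these factors from binding proteins (chromosome 4, 65124174 to 65357509), was at 0.35 to 0.495 TPM (median 0.428) in controls and at 6.26, 7.11, 5.21 and 5.26 TPM in mutants (2.28 ± 0.10, adjusted p = 9.48e-08). Its relative Pappa2 changed by -0.71 ± 0.16. Of the binding proteins, Igfbp2 lay at 244 to 281 TPM (median 260.2) and 143, 153, 161 and 188 TPM (-0.69 ± 0.07, adjusted p = 3.41e-05) and Igfbp4 fell by 0.33 ± 0.05. Retinoid and thyroid hormone genes gave 4 higher, 6 lower and 8 not called of 18 (5 and 6 after median-ratio rescaling and 4 and 2 in the male libraries alone). With the filter at 5 TPM, 1 member was called higher and 2 lower. Dio3 and Rxrg passed the filter at 1 TPM through the mutants alone and Dio2 through the controls alone, so their calls add no support. Dio3, the enzyme that inactivates the hormone (chromosome 12, 110279068 to 110281097), was near 0 in controls at 0 to 0.111 TPM (median 0.0476) and stood at 17.4, 25, 4.81 and 5.3 TPM in mutants (3.45 ± 0.37, adjusted p = 6.48e-05). Dio2, which activates it, was at 0.987 to 1.63 TPM (median 1.31) and 0.407, 0.259, 0.123 and 0.37 TPM (-0.82 ± 0.11, adjusted p = 0.000292). The hormone receptor Thra was lower (-0.54; adjusted p = 0.0546 in the male libraries alone), and the retinoid X receptors Rxrg (1.62 ± 0.17, adjusted p = 4.96e-05) and Rxra (0.75 ± 0.09, adjusted p = 8.82e-05) were higher. Of 34 imprinted genes 6 were higher and 13 lower (7 and 7 after median-ratio rescaling and 5 and 8 in the male libraries alone, and 8 lower without control libraries 1 and 5). Of these, Dio3, Peg10 and the growth inhibitor Grb10 (0.75) rose, and Cdkn1c, Nap1l5 (-1.07) and Ndn (-0.38) fell.

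Of the other large changes, Prm1, a protamine that packs sperm DNA, lay at 0 to 0.603 TPM (median 0) in controls and at 132, 160.5, 385 and 251 TPM in mutants, a change of 7.55 ± 0.27 (adjusted p = 2.76e-08), the largest of all ranked genes. Whether its reads come from the native gene or from the transgenes named only for the mutants was not tested. Crh, the corticotropin-releasing hormone gene (chromosome 3, 19693401 to 19695396), lay at 1.05 to 2.07 TPM (median 1.59) in controls and at 142, 44.8, 10.5 and 5.04 TPM in mutants (3.36 ± 0.75, adjusted p = 0.00789), and was not called in the male libraries alone (adjusted p = 0.0786). Mutant libraries 1 and 2 were far above 3 and 4, as they were for Dio3. Cpxm2, a carboxypeptidase-like gene, lay at 1.02 to 1.58 TPM (median 1.23) and 18.7, 12.6, 19.6 and 11.7 TPM (2.86 ± 0.14, adjusted p = 4.06e-07), Synm, an intermediate filament gene, at 1.77 to 2.03 TPM (median 1.85) and 21.3, 14.6, 20.2 and 15.3 TPM (2.69 ± 0.11, adjusted p = 5.69e-08), and Pdgfa, a ligand for oligodendrocyte precursors, at 2.36 to 5.99 TPM (median 4.52) and 30.8, 32.9, 23.3 and 21.7 TPM (2.42 ± 0.18, adjusted p = 7.71e-06). Further rises among the 20 largest were Peg10, an imprinted gene derived from a retroelement (2.10 ± 0.16), Steap4, a metal reductase gene (2.07 ± 0.12), Chodl (2.04 ± 0.14) and Syt13 (1.89 ± 0.29).

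The largest fall was that of Dct, a melanin synthesis enzyme that is also made in cortical progenitors (chromosome 14, 118012790 to 118052244). It lay at 23.3 to 43.4 TPM (median 28.1) in controls and at 0.935, 0.587, 8.06 and 6.75 TPM in mutants (-3.04 ± 0.50, adjusted p = 0.00163), so that libraries 1 and 2 were almost without it and 3 and 4 were not. Loxl1, a lysyl oxidase that cross-links elastin, lay at 4.48 to 10.8 TPM (median 9.41) and 0.962, 0.318, 1.75 and 1.17 TPM (-2.17 ± 0.25, adjusted p = 9.98e-05). Ly6g6e, a surface protein gene, lay at 17.3 to 24.4 TPM (median 21.1) and 3.85, 6.95, 3.28 and 9.53 TPM (-1.77 ± 0.22, adjusted p = 0.000163), Kif26b, an atypical kinesin gene, at 12.7 to 18.3 TPM (median 16.2) and 3.67, 3.66, 4.43 and 5.04 TPM (-1.70 ± 0.11, adjusted p = 2.99e-06), and Cemip, which breaks down hyaluronan, at 5.06 to 7.59 TPM (median 6.35) and 1.23, 1.29, 1.1 and 1.61 TPM (-1.67 ± 0.11, adjusted p = 3.36e-06). Nfatc4, a calcium-regulated factor gene, changed by -1.51 ± 0.15, the adhesion gene Alcam by -1.38 ± 0.19, the collagen gene Col2a1 by -1.32 ± 0.12, the heparan sulfate enzyme gene Hs3st1 by -1.45 ± 0.12, Nkain2 by -1.33 ± 0.10 and Mpped2 by -1.28 ± 0.09. In these 6 genes the libraries did not overlap, which the ranking of falls required. Of 46 tested matrix genes 18 were lower and 4 higher (8 lower in the male libraries alone); Bcan, a brain proteoglycan, fell by 1.55 ± 0.41 and Gpc3, a glypican that binds Hedgehog, rose by 0.99 ± 0.22, both named after their values were seen.

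**Figure D5:**
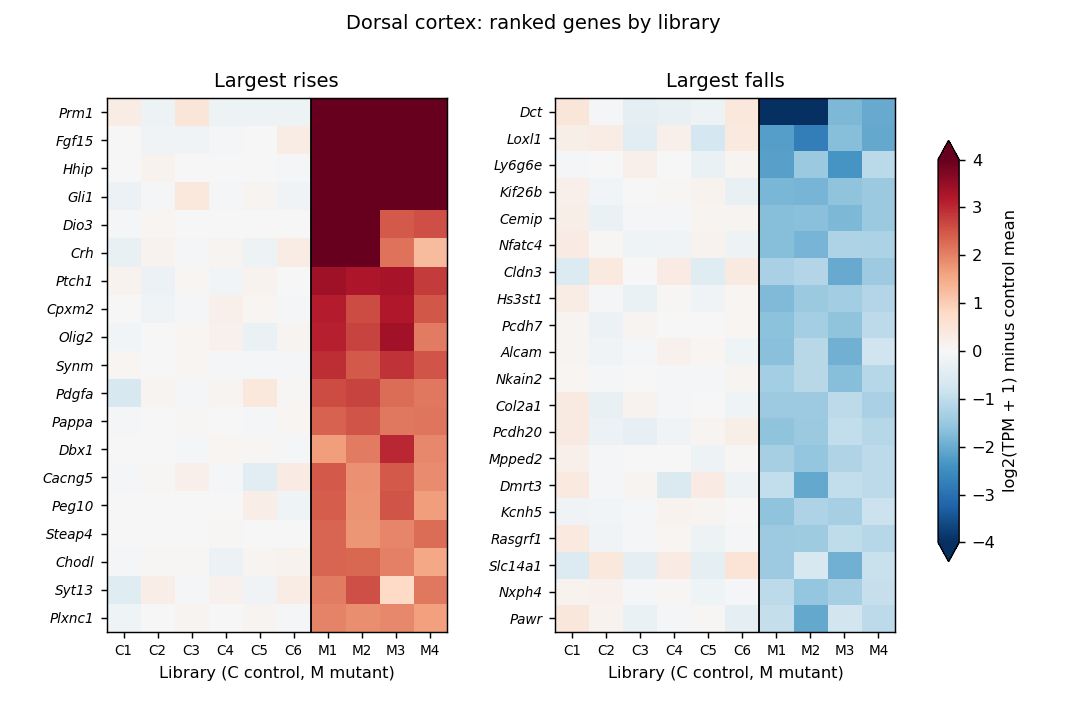
Level of 19 of the 20 largest rises (left) and of the 20 largest falls (right) in each dorsal library, as log2(TPM + 1) minus the mean of the 6 controls (colour; C control, M mutant; beyond 4 in either direction the colour no longer changes). Dio3, Crh and Dct differ between mutant libraries 1 and 2 and libraries 3 and 4, while Gli1, Ptch1 and Plxnc1 are alike in all 4.

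Some genes crossed a level of 1 TPM between the groups, in part by small steps, such as Pvt1 from a mean of 0.843 to 1.37 TPM. Below 1 TPM in all 6 controls and at 1 TPM or more in all 4 mutants were 27 genes, all 27 called higher. The rule itself separates the groups and these genes passed the filter through the mutants alone, so their calls add no support. Of the 27 genes, 21 carry names the ranking admits. They included Prm1, Fgf15, Hhip, Dio3, Pappa, Dbx1, Steap4, Ano1 and Entpd2, an enzyme of progenitors that breaks down extracellular ATP, which was at 0.093 to 0.433 TPM (median 0.21) in controls and 3.34, 3.41, 4.53 and 2.62 TPM in mutants. Egfr, the receptor of later gliogenic progenitors, was among them at 0.244 to 0.314 TPM (median 0.293) and 3.46, 3.55, 1.96 and 2.13 TPM (1.53 ± 0.13, adjusted p = 1.54e-05). In the reverse direction 20 genes went from at least 1 TPM in every control to below 1 TPM in every mutant, and 18 of these were called. Here too the rule separates the groups, and the genes passed the filter through the controls alone. Stat4, a signalling factor gene, lay at 1.83 to 3.33 TPM (median 2.42) and 0.677, 0.617, 0.646 and 0.809 TPM (-1.06 ± 0.12, adjusted p = 7.06e-05). Ntf3, which encodes neurotrophin 3, lay at 1.1 to 2.35 TPM (median 1.51) and 0.395, 0.413, 0.278 and 0.343 TPM (-0.89 ± 0.14, adjusted p = 0.000594), and Prrx2, a homeobox gene of mesenchyme, at 1.46 to 3.19 TPM (median 2.24) and 0.129, 0.361, 0.668 and 0.349 TPM (-1.20 ± 0.17, adjusted p = 0.000332). Before the fall these were low genes: the 10 with the largest change had control medians of at most 2.42 TPM.

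Markers of other cell types were read beside these results. Microglial genes summed to 109 to 143 TPM in controls and 85.8 to 106 TPM in mutants, and 6 of 15 were lower and 0 higher (3 lower in the male libraries alone). Cx3cr1 changed by -0.62 ± 0.11 (adjusted p = 0.00151), and Csf1r by -0.53 ± 0.10 (adjusted p = 0.00244). Endothelial genes summed to 209 to 232 TPM and 183 to 222 TPM, with 2 higher and 5 lower of 21 (1 to 3 lower without control library 3, 4 or 6 or mutant library 1, 3 or 4, and 0 after median-ratio rescaling or in the male libraries alone); the 2 were the tip cell genes Esm1 (0.74 ± 0.12, adjusted p = 0.00107) and Apln (0.50 ± 0.10, adjusted p = 0.00271). Pericyte and meningeal genes summed to 90.1 to 116 TPM and 67.1 to 96.9 TPM, with 0 higher and 3 lower of 13 (1 lower without mutant library 3 or in the male libraries alone). The lower shares, 23.8% of endothelial and 23.1% of pericyte and meningeal genes, were near the 26.0% of all tested genes. In limma none of 10 tested genes of red blood cells was called (1 at an unadjusted p under 0.05; 3 lower without control library 2); their sums were 4344 to 6001 and 4057 to 4996 TPM. Of 16 genes of oligodendrocyte precursors and astrocytes 3 were higher (Olig2, Olig1 and Egfr) and 1 lower (2 lower without control library 1 or 5, 0 without mutant library 3); the precursor genes Sox10, Gpr17 and Bcas1 did not pass the filter, and Pdgfra changed by 0.45 ± 0.26 (adjusted p = 0.204; 0.0182 without mutant library 3). Of 18 genes of choroid plexus and pigment cells only 3 passed the filter, Dct among them, and the pigment cell genes Tyr, Tyrp1, Mitf, Pmel and Mlana did not. The part that these cells had in any result was not tested.

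The effect in dorsal cortex was set against that in medial cortex (4 mutant and 5 control libraries) by the difference of the 2 effects, with genotype and title number as a block. The medial controls are numbered 2 to 6 in their titles and 1 to 5 in their descriptions, and the labels do not say that a number marks an embryo. The difference passed for 44 genes (0.336%), but only for Ccnd1 without the block (adjusted p = 0.0435) and only for Ccnd1 with the description number as the block (adjusted p = 0.0174, an alternative chosen after seeing the data). Ccnd1 rose by 1.41 dorsally and by 2.79 medially, a difference of 1.39 ± 0.17 (limma adjusted p = 0.00156). With the title number as the block, Sox1 and Cacng5 rose less dorsally, with differences of 0.69 ± 0.11 (limma adjusted p = 0.00641) and 0.90 ± 0.15 (limma adjusted p = 0.0102), and Cdkn1c was reduced less, with -0.51 ± 0.07 (limma adjusted p = 0.00621). In that fit Pappa rose more dorsally (-1.17 ± 0.21, limma adjusted p = 0.0179; adjusted p = 0.0553 without mutant dorsal library 3), as did Hes1 (-0.42 ± 0.08, limma adjusted p = 0.0379) and Mxd3 (-0.34 ± 0.07, limma adjusted p = 0.0428), whose calls were lost without control dorsal library 3, 4 or 5 or mutant dorsal library 1 or 3 (for Mxd3 also without control library 6 or mutant library 4). With no filter on low values 3 genes passed, and Sox1, Cacng5, Cdkn1c, Pappa, Hes1 and Mxd3 were not among them. After median-ratio rescaling Hes1 (0.0886) and Mxd3 (0.134) were lost, and at a pseudocount of 0.1 Pappa was (0.0906; limma adjusted p). No difference was called for Gli1, Ptch1, Hhip, Fgf15, Cdk6, Olig2, Prm1 or Dct. Without dorsal libraries one at a time 24 to 47 genes passed.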

How the data were processed

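RNA of dorsal cortex was extracted and made into stranded total RNA libraries, per the labels' protocols. The authors deposited TPM values for each library, on mm10 per the submitters' processing notes; which aligner, quantifier, annotation and strand setting they used is not given in the sources used here. TPM keeps no depth, so the number of reads behind a value is unknown. Genes at 1 TPM or more in at least 4 of the 10 dorsal libraries were tested on log2(TPM + 1) with limma 3.58.1 (R 4.3.3; trended, robust empirical Bayes, Benjamini-Hochberg adjustment at 0.05), a procedure tested on simulated data. The difference from medial cortex was fitted on 19 libraries with genotype and title number as a block (correlation 0.521; 0.198 with the number of the description). No label says that title numbers pair mutants with controls. Same-numbered libraries had correlations of deviations of -0.448, 0.156, -0.152 and -0.2, too few to exclude a pairing. The 46 lists and the genes were chosen with earlier results of these data known. Named were the 20 largest non-overlapping changes each way, up to 4 members per list by adjusted p, the 10 largest of each kind of threshold crossing and fixed Hedgehog, cell cycle and progenitor genes; predicted, clone, small RNA, pseudogene, ribosomal, mitochondrial and sex-linked names were left out of the rankings. Values of some genes so chosen are left out of the text. Genes named outside this rule were chosen after their values were seen: called members of the Hedgehog, target and E2F groups, the tissue markers, the neighbours of Fgf15, Bcan, Cdkn1b, Dcc, Dll1, Dusp6, Emx2, Fgfr3, Gpc3, Hes1, Hes5, Nap1l5, Pappa2, Pdgfra, Rbl1, Robo1, Robo2, Robo3, Thra and Unc5b. Positions are from GENCODE M21 (GRCm38) and promoters from RefSeq (GRCm38.p6). Python 3.11.15, pandas 2.3.3 and matplotlib 3.10.9 were used. Alternatives were pseudocounts of 0.1 and 0.5, no filter or one at 5 TPM, other scalings, all 19 libraries, sex, the title number as a block, no trend, and each library left out.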

Additional observations from a re-analysis of the deposited data

Results flagged for a closer look

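In 16 of 366 sets of libraries, 1 per gene and group, a single library stood far from the others of its group; chance gives about 1 in 20. Ano1 was at 0.874 TPM in control library 6 against 0.561 to 0.649 TPM, and Cdkn1b was at 184 TPM in mutant library 3 against 201 to 203 TPM. Cdon was at 113 TPM in mutant library 3 against 85.1 to 88.8 TPM, and Cdt1 was at 41.4 TPM in control library 1 against 37.8 to 39 TPM. Cntn2 was at 243 TPM in mutant library 3 against 362 to 389.9 TPM, and Cplx2 was at 197 TPM in mutant library 2 against 139.9 to 143 TPM. Dmrt3 was at 1.67 TPM in mutant library 2 against 4.34 to 4.53 TPM, and Dusp6 was at 36.5 TPM in control library 3 against 43.8 to 48.4 TPM. Eda2r was at 10.4 TPM in mutant library 3 against 4.12 to 4.43 TPM, and Gm26793 was at 1.47 TPM in mutant library 4 against 4.4 to 4.95 TPM. H2afx was at 316 TPM in control library 2 against 274 to 281 TPM, and Hist1h3b was at 1638 TPM in control library 2 against 1339.7 to 1414 TPM. Rrm2 was at 356 TPM in mutant library 3 against 284 to 294 TPM, and Rxra was at 25.3 TPM in mutant library 3 against 22.9 to 23.2 TPM. Sfrp1 was at 263 TPM in control library 1 against 214 to 224 TPM, and Sp8 was at 5.24 TPM in mutant library 3 against 4.21 to 4.37 TPM.

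For 7 of the genes described, the effect differed between medial and dorsal cortex (limma, interaction with genotype and title number as a block). The medial minus dorsal differences were 0.90 for Cacng5, 1.39 for Ccnd1, -0.51 for Cdkn1c, -0.42 for Hes1, -0.34 for Mxd3, -1.17 for Pappa and 0.69 for Sox1. Without the block, and with the number of the description in place of that of the title, Ccnd1 was the only gene to pass, so the other 6 differences depend on the title number.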

How the results depend on the processing

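Of the 183 genes described, 171 were called and 138 of these in every alternative run that tested them. The filter at 5 TPM left 161 of the 183 genes to test. The run without histone, mitochondrial and ribosomal protein genes left 181. The counts of 1222 higher and 3400 lower were 1965 and 1634 after median-ratio rescaling and 721 and 1428 in the male libraries alone. The lower count was 1981 after quantile normalization, 2107 without histone, mitochondrial and ribosomal protein genes and 2089 with sex as a term. With the title number as replicate block the counts were 785 and 1315. No label says that this number pairs a control with a mutant, and no mutant library matched its own number best. So few libraries cannot exclude a pairing. With that block Bcan, Bmi1, Boc, Crh, Csnk1d, Dct, Dll1, Emx1, Emx2, Fadd, Foxf2, Gpc3, Hes1, Hes5, Hopx, Neurod6, Neurog2, Olig1, Pappa2, Prkacb, Prkar1a, Stk36 and Tbr1 missed the threshold. List members called lower, 352 in all (320 were higher), numbered 217 after median-ratio rescaling, 230 with sex as a term, 184 in male libraries and 181 with the replicate block. Falls of at least 2-fold, 48, were 104 at a pseudocount of 0.1. The 44 genes that differed between medial and dorsal cortex were 3 with no filter, 24 after median-ratio rescaling and 1 (Ccnd1) with no block of genotype and title number or with the description number in its place. Leaving out 1 library gave 992 to 1245 higher, 2514 to 3495 lower, 76 to 96 and 44 to 67 with at least 2-fold changes, 297 to 329 and 288 to 360 list members and 24 to 47 medial differences. Without control libraries 1 and 5, an alternative chosen after seeing the data, 1203 were higher and 2783 lower. Uncalled genes near 0 changed sign. Ccnd3 was at -0.00248 with the replicate block, and at -0.00313 and -0.0849 without control library 6 and mutant library 3, with a highest value of 0.115 without mutant library 2. Cttn was at 0.056, 0.00874 and 0.0215 and Oraov1 at 0.0102 and 0.0106 after these rescalings, in that order. Tpcn2 was at -0.0283 with sex as a term and in male libraries, and between -0.0854 and -0.00473 without control library 2, 4 or 6 or mutant library 3 or 4, with a highest value of 0.0911 without mutant library 2. The cause of these shifts was not tested. TPM gives no read depth, so counting error could not be set beside any value.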
